A study of Mus musculus with 16 samples.

Results

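The 32 genes described here encode the T cell receptor, its coreceptors and surface partners, the kinases and adaptors that carry its signal, and transcription factors and cytokine receptors that mark T cells and their states. They were taken by name from a list. No measured value entered that rule, though the list was chosen with earlier results of these data known. Of 47311 genes to which transcripts were matched, 32 are members, and all 32 were among the 16154 genes that passed the filter on low counts. The members fall into 5 groups by role: 7 genes of the receptor complex, 6 coreceptor and surface genes, 8 genes of proximal signalling, 6 transcription factors and 5 genes of cytokine receptors and trafficking.

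The data were bulk RNA-seq of 16 mammary tumours from female C57BL/6J mice that ate a high-fat diet (60% of kcal as fat) between the ages of 8 and 26 weeks. E0771-luciferase cells, a mouse mammary cancer line carrying a luciferase reporter, were placed in the mammary gland numbered 4 (250000 cells in 25% matrigel), and antibody was given into the peritoneum every 3 days from day 3 after the cells until day 21. For 8 tumours it was anti-PD-1, which blocks an inhibitory receptor of activated T cells, and for the other 8 an IgG2a isotype control, at 200 ug in 50 ul per mouse. Both arms shared the diet, strain, sex and tumour line, and mice on a lean diet were not analysed here. The comparison asks what checkpoint blockade changed in tumours of mice on this diet. The labels number each tumour but do not state that every tumour came from a different mouse, so p-values measure the spread between these tumours.

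A T cell recognises peptide through an alpha and a beta chain that are joined to the CD3 gamma, delta, epsilon and zeta chains. When the receptor is engaged, the kinase Lck phosphorylates the CD3 chains, Zap70 binds them, and the adaptors Lat and Lcp2 assemble the signalling complex. Resting T cells keep Tcf7, Lef1, Il7r and S1pr1, which support survival and exit from tissue, while Cd69 and Il2rb rise after activation and Tox is a factor of T cells under lasting antigen. Several members are also made outside T cells: Il2rg, Lcp2 and Cd52 by many leukocytes, Thy1 by fibroblasts, S1pr1 by endothelium and Satb1 by other lineages.

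The sequences of 2 sets of members are shown because they bear on how the values are read. The constant genes Trbc1 and Trbc2 encode alternative ends of the beta chain, and reads that fall on their shared bases could have been divided between them. Aligned over 521 bases, the Trbc1 transcript of 737 bases and the Trbc2 transcript of 692 bases were identical at 498 (95.6%), with 1 identical run of 259 bases. The stretch below, bases 399 to 518 of each transcript in GENCODE M21, holds 19 differences, in capitals, and lies in the coding sequence.
Trbc1: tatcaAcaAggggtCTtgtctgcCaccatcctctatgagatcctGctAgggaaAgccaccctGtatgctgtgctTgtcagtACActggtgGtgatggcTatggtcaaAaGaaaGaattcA
Trbc2: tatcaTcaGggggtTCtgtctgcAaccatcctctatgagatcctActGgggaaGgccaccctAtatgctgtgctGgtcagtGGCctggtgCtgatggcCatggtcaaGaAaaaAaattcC
How reads were divided between the 2 genes is therefore uncertain. Trbc1 lies at chr6:41538218-41539881 and Trbc2 at chr6:41546730-41548352, both on the forward strand of GRCm38.

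Cd3g, Cd3d and Cd3e stand within 40056 bases of chromosome 9, and Cd3g and Cd3d start 1355 bases apart on opposite strands. The 250 bases before the start of each are printed because the ratio of these neighbours in 1 tumour lay far from that in the other 15, as given below. The corresponding bases of Il2rg are added because its level varied least among the members. They are RefSeq promoters of GRCm38.p6, with capitals for the ETS core AGGAAG, the RUNX core TGTGGT and the TCF/LEF core CTTTGA, each searched on both strands. The marked matches do not overlap one another.
Cd3d, chr9:44981536-44981785, forward strand: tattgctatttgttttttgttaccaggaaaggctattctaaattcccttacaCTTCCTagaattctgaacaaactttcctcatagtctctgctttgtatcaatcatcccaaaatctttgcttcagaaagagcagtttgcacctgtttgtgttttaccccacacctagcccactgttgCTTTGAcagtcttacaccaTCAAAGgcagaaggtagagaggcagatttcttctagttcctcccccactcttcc
Cd3g, chr9:44980432-44980681, reverse strand: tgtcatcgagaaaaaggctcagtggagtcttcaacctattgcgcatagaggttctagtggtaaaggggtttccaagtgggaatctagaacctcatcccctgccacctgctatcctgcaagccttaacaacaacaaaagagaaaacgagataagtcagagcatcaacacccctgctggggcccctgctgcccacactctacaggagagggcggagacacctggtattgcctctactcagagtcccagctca
Cd3e, chr9:45009612-45009861, reverse strand: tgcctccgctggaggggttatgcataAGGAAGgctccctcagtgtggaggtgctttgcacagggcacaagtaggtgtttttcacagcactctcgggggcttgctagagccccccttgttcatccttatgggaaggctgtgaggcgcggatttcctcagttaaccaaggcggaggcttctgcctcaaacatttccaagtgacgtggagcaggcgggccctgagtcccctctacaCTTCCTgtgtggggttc
Il2rg, chrX:101268256-101268505, reverse strand: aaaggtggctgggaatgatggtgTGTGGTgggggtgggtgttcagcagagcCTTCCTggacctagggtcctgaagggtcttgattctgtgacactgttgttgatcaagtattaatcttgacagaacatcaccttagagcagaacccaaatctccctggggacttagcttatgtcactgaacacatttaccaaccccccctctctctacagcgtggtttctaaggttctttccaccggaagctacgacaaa
The ETS letters occurred in Cd3d, Cd3e and Il2rg and not in this window of Cd3g. Of 32 members 17 matched the promoter table, and 14 of their 29 promoters (48.3%) held the ETS letters, against 29.5% of 32851 mouse promoters of that length. These 14 belonged to 12 of the 17 genes, and promoters of the same gene are not independent. The RUNX letters stood in 3 of 29 (10.3%, against 14.0%) and the TCF/LEF letters in 5 of 29 (17.2%, against 13.8%). Also searched, though not marked above, were the E-box letters CANNTG, with N any base, and the TATA box letters TATAAA. They stood in 22 of 29 (75.9%, against 66.2%) and in 2 of 29 (6.90%, against 12.4%). These are matches of letters, not measured binding.

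The tumours held between 59036535 and 82591064 estimated reads, and the receptor genes took few of them, so counting error is sizeable for the rarest members. Among all tumours, 3 stood apart and touch results below. In IgG2a replicate 7 the summed level of 5 adipocyte markers was 3909.7 CPM (counts scaled to a common library size), against 0.368 to 87.4 in the other 15, that of 5 erythroid markers 25748 CPM against 37.6 to 845, and that of 5 endothelial markers 1213 CPM against 112 to 217. In IgG2a replicate 3 the 4 measured skeletal muscle markers summed to 20274 CPM, against 1.74 to 95.1 elsewhere. In anti-PD-1 replicate 6, 38993 transcripts were detected, against 47997 to 55476 in the others. In bulk RNA, fewer T cells and less RNA per T cell cannot be told apart.

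Reads of every gene of the receptor complex were present in all 16 tumours, so the name T cell genes is borne out by its defining members. Cd3e, the CD3 epsilon chain, had 77 to 461 reads per tumour, and Cd3d, the delta chain, 20 to 438. Other lymphocytes were also present: 4 of 5 B cell markers were tested and summed to 16.7 to 38.4 CPM over all tumours. All 5 natural killer cell markers were tested and summed to 5.12 to 18.9 CPM, with Klra8 at 0 in 1 tumour. Their part in the levels of shared members was not tested.

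Members were ranked by TPM, the deposited value that is scaled per length, as the median of 16 tumours. Cd52, a small surface glycoprotein of lymphocytes and other leukocytes, stood first at 254 TPM, with a range of 118 to 446. Il2rg, the receptor chain shared by several interleukins, followed at 159 TPM (71.9 to 192). Thy1 was next at 27.5 TPM (10.8 to 96.2) and the adaptor Lcp2 at 23.0 TPM (12.0 to 37.0). All the genes that code for parts of the receptor were lower, from Trbc2 at 9.39 TPM to Cd3d at 2.08 TPM. Cd4 stood at 1.66 TPM and Zap70 at 1.34 TPM. Themis, an adaptor of developing and mature T cells, closed the order at 0.132 TPM. The ranges over tumours of neighbours in the order overlapped throughout, for Il2rg and Thy1 only through their extreme tumours.

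The median was at least 1 TPM for 23 members, and for 21 when only protein-coding and receptor constant transcripts were summed, an alternative chosen after seeing the data. Short transcripts weigh heavily in TPM. A retained intron of Cd3g, 294 bases long, held 4.68% of the reads of Cd3g but 40.7% of its mean TPM. A processed transcript of Cd4, 273 bases long, held 0.619% of the reads of Cd4 and 36.6% of its mean TPM. For Cd3g the median fell from 6.93 to 5.80 TPM without such transcripts, and for Cd4 from 1.66 to 0.905 TPM. In Ubash3a, a phosphatase-like brake on receptor signalling, 77.3% of reads went to a transcript of 2651 bases annotated as processed, and its coding transcripts had a median of 0 TPM. Comparisons between tumours therefore use CPM from summed counts.

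Members tended to be high or low in the same tumours. Anti-PD-1 replicate 5 was above the median in 32 of 32 members and highest in 19. IgG2a replicate 4 was below the median in all but 3 and lowest in 12. IgG2a replicate 1 lay above the median in 30 members and anti-PD-1 replicate 8 in 28, while anti-PD-1 replicate 3 did so in only 2 and IgG2a replicate 6 in 5. High and low tumours thus occurred in both arms. IgG2a replicate 7 was divided, highest in 3 members and lowest in 8.

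**Figure D1:**
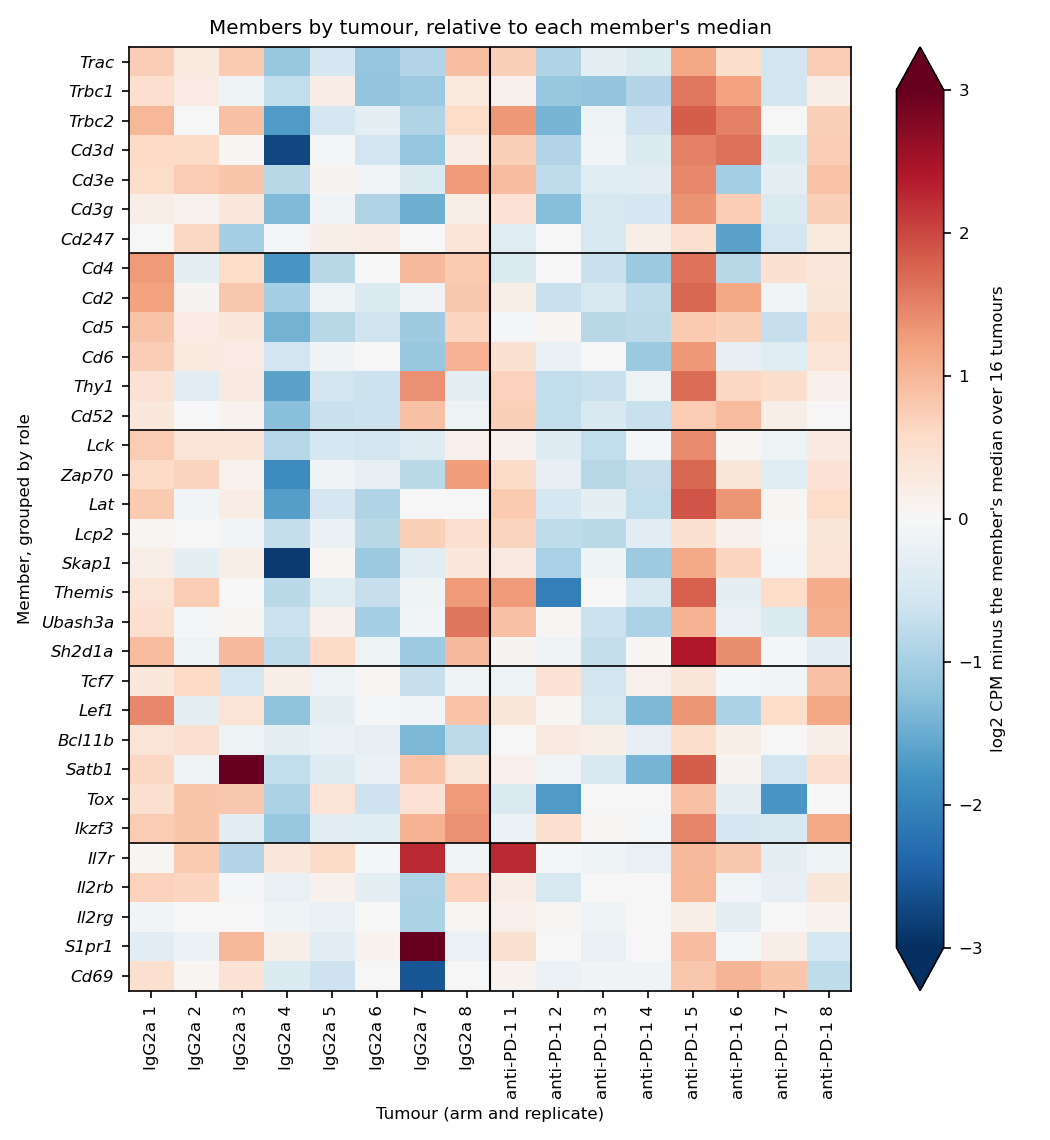
Heat map of the 32 members (rows, grouped by role) in the 16 tumours (columns, IgG2a left and anti-PD-1 right of the line). Colour is log2 CPM minus the member's median over all tumours, red higher and blue lower. Anti-PD-1 replicate 5 is above the median in all 32 rows, IgG2a replicate 4 in 3, and IgG2a replicate 7 is highest for S1pr1 and Il7r and lowest for Cd69.

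Genes of the T cell receptor complex ranged over several fold between tumours. Trac, the alpha constant gene, measured 1.87, 3.95 and 7.79 CPM (lowest, median, highest) under anti-PD-1 and 1.54, 3.37 and 6.49 CPM under IgG2a. Trbc2 measured 1.35, 4.76 and 12.7 CPM under anti-PD-1 and 1.08, 3.23 and 7.15 CPM under IgG2a. Anti-PD-1 replicate 5 was highest for both, and the arms overlapped. Trbc1 ran from 1.13 to 7.85 CPM under anti-PD-1 and from 1.13 to 3.71 CPM under IgG2a, with medians of 2.33 and 2.72 CPM.

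Cd3d measured 1.14, 2.78 and 6.79 CPM under anti-PD-1 and 0.295, 2.13 and 3.24 CPM under IgG2a. The lowest value came from IgG2a replicate 4, where 20 reads were counted, and the highest from anti-PD-1 replicate 6. Cd3g, the gamma chain, measured 1.77, 4.50 and 10.9 CPM under anti-PD-1 and 1.53, 4.30 and 5.34 CPM under IgG2a. Cd3e measured 1.19, 1.99 and 6.73 CPM under anti-PD-1 and 1.37, 3.11 and 5.96 CPM under IgG2a. The arms overlapped for all of these chains.

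Cd3e departed from its neighbours in 1 tumour. In anti-PD-1 replicate 6, Cd3d was at 6.79 and Cd3g at 7.30 CPM, the highest and second highest values of the series, while Cd3e was at 1.19 CPM, the lowest. The ratio of Cd3d to Cd3e in CPM was 5.69 there and 0.215 to 1.06 in the other 15 tumours. The ratio of Cd3g to Cd3e was 6.12 there and 0.811 to 1.63 elsewhere. Cd3e was counted from 1 transcript of 1436 bases, so no division between isoforms enters its count. This is the tumour in which the fewest transcripts were detected.

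**Figure D2:**
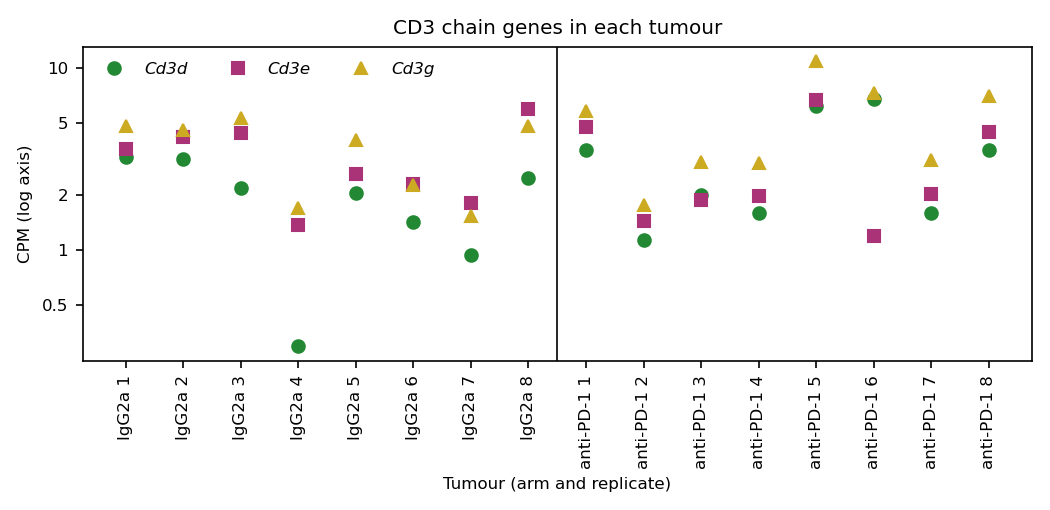
CPM (log axis) of Cd3d (circles), Cd3e (squares) and Cd3g (triangles) in each of the 16 tumours, IgG2a left and anti-PD-1 right of the line. The 3 genes move together except in anti-PD-1 replicate 6, where Cd3e is at 1.19 CPM below Cd3d at 6.79 and Cd3g at 7.30, and in IgG2a replicate 4, where Cd3d is at 0.295 CPM.

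Cd247, the zeta chain, measured 1.60, 4.33 and 6.92 CPM under anti-PD-1 and 2.44, 5.22 and 7.57 CPM under IgG2a. Across 16 tumours r of Cd247 was -0.07 with Trac, -0.26 with Trbc2 and -0.15 with Cd3d, and without the 3 tumours that stood apart it was 0.32, 0.15 and 0.30, as descriptions. Its exons overlap those of Pou2f1, the gene of the widely expressed factor Oct-1, on the opposite strand, and the kit does not mark strand. The Cd247 transcript of 1317 bases held 51.2% of the reads and shares 59.4% of its bases with exons of Pou2f1, a gene with a median of 2067.5 reads. The transcript of 1632 bases, with 24.1% of the reads, shares no base with Pou2f1. Over all 16 tumours r with Cd3e was 0.47 for the longer and 0.42 for the shorter of these, and over the 13 tumours other than the 3 named above it was 0.79 and 0.47, as descriptions. The shorter one was at 0 reads in anti-PD-1 replicate 6, and between 1.26 and 3.83 CPM in the rest. On the shared bases, reads of Cd247 and Pou2f1 cannot be told apart in these libraries.

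Coreceptor and surface genes varied in the same tumours. Cd4, the helper coreceptor, measured 0.993, 1.91 and 6.87 CPM under anti-PD-1 and 0.634, 2.68 and 5.38 CPM under IgG2a. Its highest value, in anti-PD-1 replicate 5, lay apart from the next treated tumour at 3.00 CPM. Cd2, an adhesion receptor, ran from 1.44 to 9.75 CPM, and Cd5 and Cd6, related inhibitory receptors, from 0.619 to 3.14 and from 1.10 to 6.00 CPM over all tumours. Thy1 measured 23.0, 49.4 and 124 CPM under anti-PD-1 and 12.6, 31.5 and 99.9 CPM under IgG2a. Cd52 measured 34.9, 62.2 and 112 CPM under anti-PD-1 and 24.6, 55.1 and 107 CPM under IgG2a. The high IgG2a values of Thy1 and Cd52 came from replicate 7.

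Proximal signalling genes were led in count by Lcp2, also called SLP-76, with 23.3 to 67.4 CPM over all tumours. Lck measured 3.57, 6.00 and 16 CPM under anti-PD-1 and 3.32, 5.64 and 10.1 CPM under IgG2a. Zap70 measured 1.38, 2.63 and 8.26 CPM under anti-PD-1 and 0.634, 2.49 and 5.97 CPM under IgG2a. Both were highest in anti-PD-1 replicate 5 and lowest in IgG2a replicate 4. Lat measured 1.17, 2.43 and 7.27 CPM under anti-PD-1 and 0.604, 1.90 and 3.42 CPM under IgG2a, and the arms overlapped. Skap1, an adaptor that links the receptor to integrins, ran from 0.177 to 3.33 CPM. Themis, Ubash3a and Sh2d1a, the adaptor SAP, had medians below 1 CPM in each arm.

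Among transcription factors, Tcf7 measured 5.51, 8.32 and 14.8 CPM under anti-PD-1 and 4.99, 7.83 and 12.3 CPM under IgG2a. Bcl11b, which fixes T cell identity, measured 3.17, 4.27 and 5.46 CPM under anti-PD-1 and 1.47, 3.20 and 5.28 CPM under IgG2a. Bcl11b exceeded the IgG2a median in 7 of the 8 treated tumours. Tox measured 0.192, 0.647 and 1.34 CPM under anti-PD-1 and 0.354, 1.00 and 1.78 CPM under IgG2a. Tox exceeded the IgG2a median in 1 of the 8 treated tumours, replicate 5, and the arms overlapped. Lef1 was the scarcest factor, with 4 to 42 reads per tumour. Ikzf3, also called Aiolos, ran from 0.457 to 2.90 CPM. Satb1, a chromatin organiser, was at 21.5 CPM in IgG2a replicate 3, the tumour with skeletal muscle markers, at 9.12 CPM in anti-PD-1 replicate 5 and between 0.945 and 4.64 CPM in the other 14.

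Il2rg was the steadiest member, at 143, 179 and 198 CPM under anti-PD-1 and 90.8, 171 and 181 CPM under IgG2a. IgG2a replicate 7 was the low tumour, and the other 15 lay between 143 and 198 CPM. Il2rb, the beta chain of the interleukin-2 receptor, ran from 6.56 CPM in that tumour to 24.8 CPM. Il7r, the interleukin-7 receptor, was at 52.9 CPM in IgG2a replicate 7 and 52.3 CPM in anti-PD-1 replicate 1, and at 6.03 to 21.8 CPM in the other 14. S1pr1, the receptor that leads T cells out of tissue, was at 134 CPM in IgG2a replicate 7 and at 6.26 to 18.0 CPM in the other 15. Cd69, which opposes S1pr1 at the cell surface, was at 0.95 CPM in IgG2a replicate 7 and at 3.37 to 11.7 CPM in the rest.

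No member passed the test between the arms. With edgeR's quasi-likelihood test and Benjamini-Hochberg adjustment over all 16154 genes, 0 of 32 members passed an adjusted p of 0.05, and the background was the same, with 0 genes (0.0%) called. DESeq2 also called 0 members, and 4 of 27810 genes (0.0144%). At an unadjusted p under 0.05 there was 1 member, S1pr1, where 11.4% of all genes fell. The arms overlapped in CPM for all 32 members, and for all but 2 genes (0.0124%) of those tested. Adjusted p of members ran from 0.434 to 0.984.

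The estimates leaned upward in number. Of 32 members 23 had a higher estimate under anti-PD-1 and 9 a lower one, with a median log2 fold change of 0.15, where 43.1% of all genes had a higher estimate and the median was -0.05. All 8 proximal signalling genes, 5 of 7 receptor genes, 4 of 6 surface genes, 3 of 6 transcription factors and 3 of 5 genes of the last group were higher. Anti-PD-1 replicate 5 carried much of this: without it 13 members were higher and 19 lower, with a median of -0.02, against 43.1% of all genes and a median of -0.06. Without the 3 tumours that stood apart, 25 members were higher, where 53.3% of all genes were. The count was 23 without IgG2a replicate 7 (49.5% of all genes), 26 without anti-PD-1 replicate 6 (43.4%) and 21 with limma-voom and quality weights (51.3%). Without IgG2a replicate 4 it was 17 (43.7% of all genes).

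The size of each difference and its error were as follows. The log2 fold change of Lat was 0.76 ± 0.41 (SE; edgeR adjusted p = 0.438), and it was 0.45 without anti-PD-1 replicate 5. Cd3d had 0.74 ± 0.47, Trbc2 0.64 ± 0.47 and Cd3g 0.53 ± 0.38 (log2 fold change and SE). Trac had 0.18 ± 0.39, Cd3e -0.10 ± 0.40 and Cd247 -0.25 ± 0.27. The 95% interval of the Trac estimate ran from -0.65 to 1.01, so 0 and changes of either sign were within it. Without anti-PD-1 replicate 6 the Cd3e estimate was 0.02.

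Cd4 had a log2 fold change of -0.17 ± 0.46 (SE), Thy1 0.39 ± 0.40, Lck 0.19 ± 0.30, Zap70 0.16 ± 0.44 and Skap1 0.45 ± 0.42. Bcl11b had 0.33 ± 0.23 and Tcf7 0.16 ± 0.22. Tox had -0.70 ± 0.41 (adjusted p = 0.448, edgeR), and it remained negative in every alternative run. The tightest estimate was that of Il2rg, at 0.15 ± 0.12 with a 95% interval from -0.11 to 0.40. The estimates of Cd6 and Il2rb lay at -0.02 and -0.01 and turned positive with upper-quartile scaling.

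The log2 fold change of S1pr1 was -1.33 ± 0.61 (SE, edgeR, unadjusted p = 0.0446, adjusted p = 0.434). S1pr1 exceeded the IgG2a median in 5 of the 8 treated tumours. Without IgG2a replicate 7 the S1pr1 estimate was 0.04, and DESeq2 gave 0.05. Satb1 had -0.72 ± 0.57, which was 0.15 without IgG2a replicate 3. Cd69 had 0.44 ± 0.35 and Il7r 0.03 ± 0.46.

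**Figure D3:**
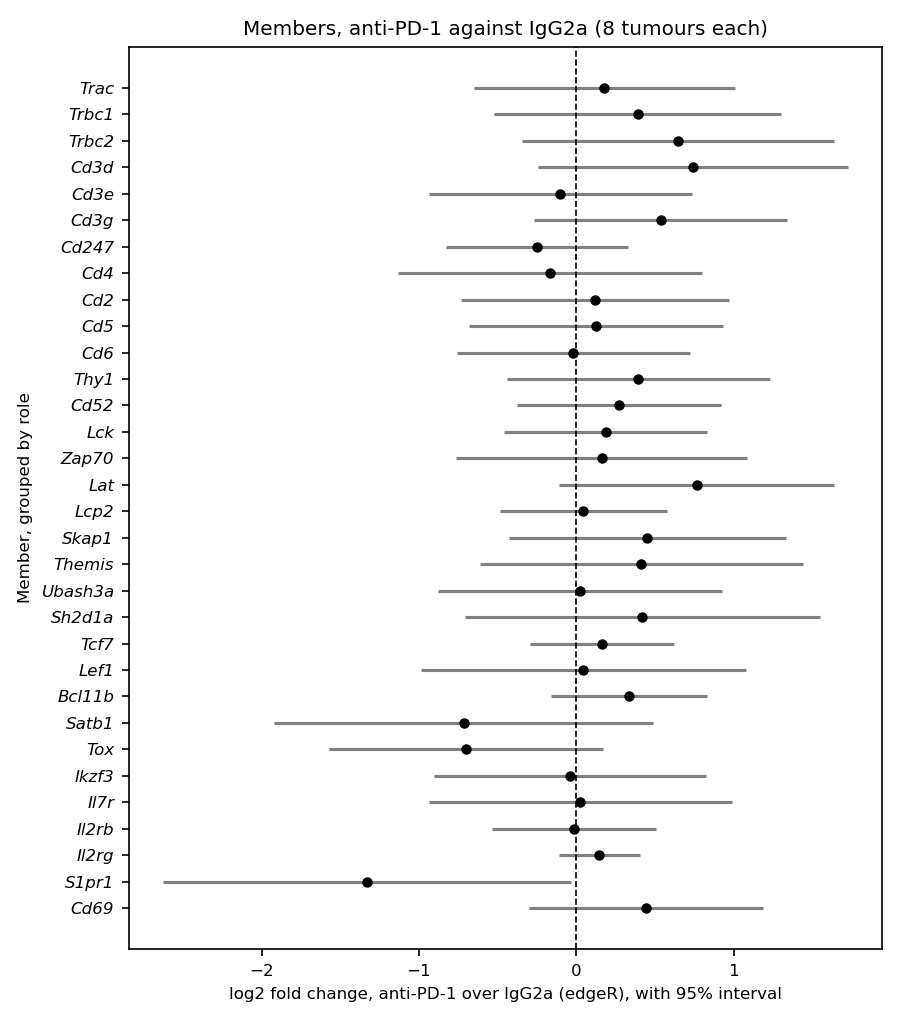
Log2 fold change of each member, anti-PD-1 over IgG2a (points), with a 95% interval (lines) derived from the edgeR test. There were 8 tumours an arm, and members are ordered by role. The intervals hold 0 for every member except S1pr1, whose interval ends at -0.04 and whose estimate is 0.04 without IgG2a replicate 7.

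Beyond the members, 42 genes of the receptor pathway were listed, from coreceptors and kinases to nuclear factors. Of these 40 were tested and 0 passed, as did 0.0% of all genes. There were 13 higher and 27 lower, with a median of -0.14, where 43.1% of all genes were higher and the median was -0.05. Without IgG2a replicate 7, 16 were higher and 24 lower, with a median of -0.05, where 49.5% of all genes were higher. Cd40lg and Trat1 had too few reads. Cd8a, the killer cell coreceptor, had a log2 fold change of 0.35 ± 0.39 (SE). The smallest p was that of Itpkb, an inositol phosphate kinase, at -1.20 ± 0.53, followed by Nfatc2 at -0.78 ± 0.37, both with an unadjusted p under 0.05 and an adjusted p of 0.434 in edgeR. Without IgG2a replicate 7 these were -0.11 and -0.31. Among the next were Plcg1, Nfatc1 and Prkcq, at -0.30, -0.29 and -1.35. Without IgG2a replicate 3 the Prkcq estimate was -0.16, and without the 3 tumours 0.27. Plcg1 and Nfatc1 exceeded the IgG2a median in 0 of the 8 treated tumours. These genes are also made by other cells of a tumour.

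Members were next compared between arms at an equal CD3 level, taking the mean log2 CPM of Cd3d, Cd3e and Cd3g as a covariate. Of the other 29 members 0 passed, as did 0 of 16154 genes (0.0%). At an unadjusted p under 0.05 there were 2, where 4.67% of all genes fell. These were Tox, at -0.97 ± 0.32 (log2 fold change and SE, unadjusted p = 0.00901, adjusted p = 0.746, edgeR), and Satb1, at -1.07 ± 0.49 (unadjusted p = 0.0436, adjusted p = 0.746, edgeR). Without the 3 tumours Tox had -0.82 ± 0.33 and Satb1 -0.02 ± 0.29, and the smallest adjusted p of the 29 was 0.264. In that setting 3 members had an unadjusted p under 0.05, where 2459 of 16352 genes did. Beside Tox these were Il2rb, at -0.28 ± 0.11, and Thy1, at 0.56 ± 0.22. At an equal CD3 level 10 of 29 members had a higher estimate, where 43.3% of all genes did, and without the 3 tumours 15 of 29, where 52.5% did.

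The slope on the CD3 level was positive for 28 of 29 members, with a median of 0.69 log2 units per log2 unit, where the median of all genes was -0.02. It passed for 5 of the 29, where 0.142% of all genes did: Trac at 0.95, Trbc2 at 1.19, Cd2 at 0.89, Zap70 at 1.03 and Lck at 0.64. Without the 3 tumours it passed for 21 of 29, where 8.12% of all genes did. S1pr1 had the 1 negative slope, at -0.53, which was 0.07 without the 3 tumours. The next lowest slopes were those of Il7r (0.03), Tcf7 (0.11), Il2rg (0.12) and Cd247 (0.13).

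Co-variation was then measured as Pearson's r and Spearman's rho with Cd3e over 16 tumours, on log2 CPM. Themis followed Cd3e most closely (r = 0.82, permutation p = 1.1e-04, rho = 0.82, permutation p = 2e-04), ranking 4 of 16153 genes. Cd6 came next (r = 0.81, permutation p = 1.5e-04, rho = 0.86), then Zap70 (r = 0.79, rho = 0.77), Il2rb (r = 0.78, rho = 0.78) and Trac (r = 0.77, rho = 0.74). After adjustment over all genes 0 of 31 members passed, as did 0 of 16153 genes (0.0%), the smallest adjusted p of a member being 0.242. Before adjustment 502 genes had p under 0.05. Without the tumours farthest from the Cd3e median, anti-PD-1 replicate 5 and IgG2a replicate 8, r was 0.73 for Themis, 0.70 for Cd6 and 0.66 for Zap70. Within IgG2a tumours alone r was 0.86, 0.87 and 0.95 for these, and within anti-PD-1 tumours 0.84, 0.79 and 0.72.

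The median r of the members with Cd3e was 0.58, where the median of all genes was 0.02. Without the 3 tumours that stood apart it was 0.79, and 16 of 31 members passed, where 2.82% of all genes did. These 16 were Trac, Trbc1, Trbc2, Cd3d, Cd3g, Cd2, Cd6, Lck, Zap70, Lat, Lcp2, Skap1, Themis, Ubash3a, Satb1 and Il2rb. Zap70, Trac and Cd3g then each had r = 0.92. An r of at least 0.8 was reached by 2 of 31 members over 16 tumours (0.0495% of all genes), by 13 without the 3 tumours (2.15%), by 4 among treated tumours (1.98%) and by 12 among IgG2a tumours (0.582%). Without the pair farthest from the Cd3e median it was reached by 0 members (0.00619% of all genes). On log2(TPM + 1), 4 members passed, where 0.0867% of all genes did. Leaving out anti-PD-1 replicate 6 alone raised the number that passed to 7, where 0.124% of all genes did. It also raised r of Cd3g from 0.67 to 0.91 and of Cd3d from 0.53 to 0.84. This setting was added after seeing the data, and Cd3e departed from Cd3d and Cd3g in that tumour. A rise in r for those genes was therefore built into the choice. The 3 tumours, which include it, were chosen with earlier results of these data known. With Trac in place of Cd3e as the anchor, over all 16 tumours, 7 members passed and 0.118% of all genes did. These counts are of Pearson's r. By Spearman's rho 11 members passed without the 3 tumours (1.84% of all genes) and 4 without anti-PD-1 replicate 6 (0.0805%), while 0 passed with Trac as the anchor or on log2(TPM + 1).

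**Figure D4:**
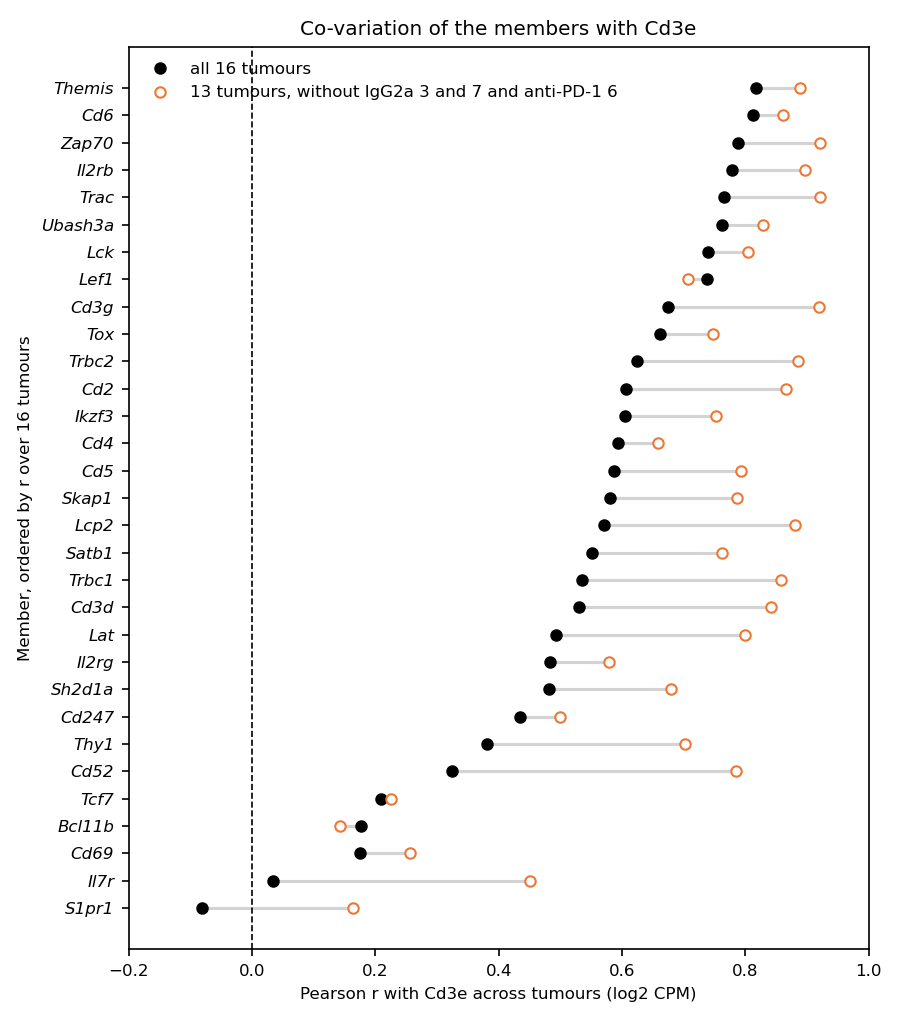
Pearson r of 31 members with Cd3e across tumours, on log2 CPM, over all 16 tumours (filled) and over the 13 other than the 3 that stood apart (open). Most members move right when the 3 tumours are left out, Cd52 from 0.32 to 0.79, while Tcf7, Bcl11b, Cd69 and S1pr1 stay below 0.3.

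A few members followed Cd3e weakly in either set of tumours. Over 16 tumours r was 0.21 for Tcf7, 0.18 for Bcl11b, 0.17 for Cd69, 0.03 for Il7r and -0.08 for S1pr1, and without the 3 tumours it was 0.22, 0.14, 0.26, 0.45 and 0.16. Il7r had r = -0.49 among IgG2a tumours and 0.46 among treated ones, a difference that was not tested. Over all 496 pairs of members the median r was 0.50, and 62 pairs had a negative r, against 12 without the 3 tumours. Within the receptor complex it was 0.77 over 21 pairs, within proximal signalling 0.69 over 28, within transcription factors 0.29 over 15, and among cytokine receptor and trafficking genes -0.25 over 10. Without the 3 tumours these medians were 0.84, 0.74, 0.44 and 0.34, and that of all pairs 0.66.

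The 10 protein-coding genes outside the members and the pathway list with the highest r with Cd3e included Cd27, Serpina3f, Serpina3g, Klrk1, Gpr174, Pdcd1, Gm45140, Ms4a4b and Hrh2. Cd27, a costimulatory receptor of T cells, ranked 1 of 16153 (r = 0.91, permutation p = 1e-05, the smallest that 100000 resamples can give, rho = 0.89, adjusted p = 0.162). Pdcd1, the gene of PD-1, had r = 0.77 (rho = 0.77). Their log2 fold changes between arms were -0.11 ± 0.39 for Cd27 and 0.04 ± 0.40 for Pdcd1 (SE), and neither passed.

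All 32 members were set against single markers of several cell types, with p adjusted over all genes for each marker. The markers were not matched to members, so a high r does not name the cell that made the RNA. S1pr1 followed the endothelial marker Pecam1 (r = 0.95, adjusted permutation p = 0.0105, rho = 0.54, adjusted permutation p = 0.248). This rests in large part on IgG2a replicate 7, since r was 0.50 without that tumour and anti-PD-1 replicate 5, and 0.72 without the 3 tumours. Thy1 followed the epithelial marker Epcam (r = 0.87, adjusted permutation p = 0.00204, rho = 0.83, 0.82 without the farthest tumours), as did Cd52 (r = 0.82, rho = 0.86, 0.78 without them). Both correlated negatively with the fibroblast marker Pdgfra (r = -0.81 for Thy1 and -0.88 for Cd52), and so did Lat (r = -0.87). Pdgfra is 1 of 6 fibroblast markers listed, and their summed level was highest in IgG2a replicate 7 (9913 CPM) and anti-PD-1 replicate 5 (5504 CPM), which were also the highest for Thy1. In all, 6 of 32 members passed with Epcam, where 28.8% of all genes did. With Pdgfra 11 passed, where 28.5% of all genes did, and with Pecam1 3, where 29.6% did. Among the other markers, 7 passed with Ccl19 of lymph node stroma (24.8% of all genes). With Adipoq of adipocytes 5 passed (29.8%), and with Adgre1 of macrophages 3 (22.4%). The counts given here lie near or below the background.

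The balance of naive and activated members was described per tumour as the mean log2 CPM of Tcf7, Lef1, Il7r, S1pr1 and Satb1 minus that of Cd69, Il2rb and Tox. It measured -0.65, 0.15 and 0.74 log2 units (lowest, median, highest) under anti-PD-1 and -0.62, -0.06 and 2.13 under IgG2a. The highest value belonged to IgG2a replicate 7, and the other 15 tumours lay between -0.65 and 0.74. The arms overlapped, and their means of 0.06 ± 0.50 and 0.12 ± 0.86 (SD, n = 8 each) differed by less than the spread between tumours. Without IgG2a replicate 7 the IgG2a mean was -0.16 ± 0.31 (SD, n = 7), and the difference, anti-PD-1 minus IgG2a, went from -0.07 to 0.22. In IgG2a replicate 7 the ratio of S1pr1 to Cd69 in CPM was 141, against 0.738 to 2.37 elsewhere, and that of Il7r to Il2rb was 8.07, against 0.505 to 3.58.

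Members of the naive list were not all high in that tumour. Tcf7 was at its lowest there, at 4.99 CPM, and the ratio of Tcf7 to Il2rb was 0.762, within the range of 0.364 to 1.23 in the other tumours. Endothelial, adipocyte and erythroid markers were all at their highest in IgG2a replicate 7, as was the summed level of the 3 tested lymph node stroma markers (33.6 CPM, against 0.118 to 18.6). The summed macrophage markers (4482 CPM, against 525 to 1674), fibroblast markers and epithelial markers (350.5 CPM, against 48.8 to 108) were also highest there. Lcp2, which macrophages also make, had its highest value in that tumour, and Cd52 its second highest. The part of these cells in the member levels was not tested.

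**Figure D5:**
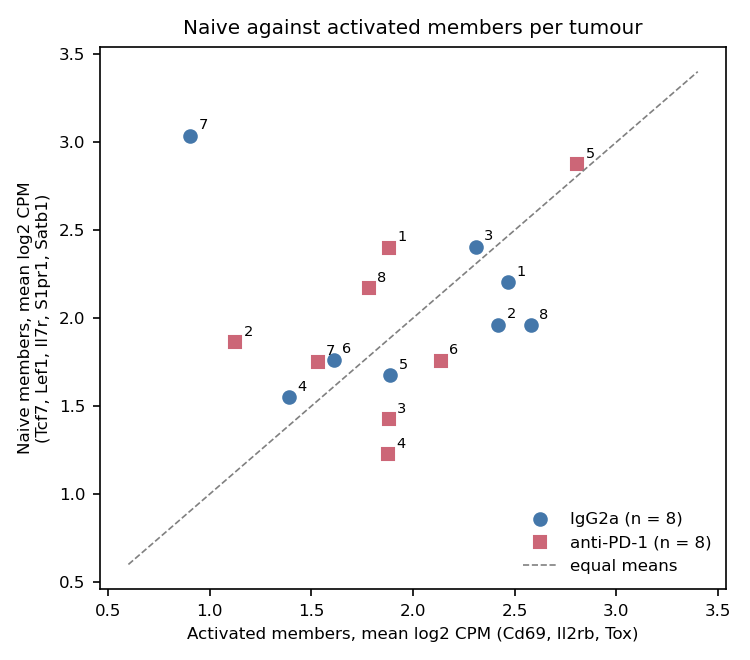
Mean log2 CPM of the naive members (vertical axis) against that of the activated members (horizontal axis) in each tumour, IgG2a as circles and anti-PD-1 as squares, labelled by replicate, with a dashed line of equal means. IgG2a replicate 7 lies 2.13 log2 units above the line, and the other tumours between -0.65 and 0.74 of it.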

How the data were processed

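The measurements are RNA-seq of 16 tumours, 8 an arm. Per the labels' protocols, RNA integrity numbers were above 5, mRNA was enriched with oligo-dT and the kit was non-directional. Per the file headers, the authors deposited an estimated count and a TPM value for each transcript, with its length and effective length. GRCm38, edgeR and limma are named in the submitters' processing notes, without versions. The quantifier was not given in the sources used here.

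Of 115088 transcripts 114200 matched GENCODE M21. The counts, which are estimates, were added up by gene and rounded to whole numbers. After filterByExpr (minimum count 10, minimum total 15) and TMM scaling, edgeR 4.0.16 under R 4.3.3 gave robust quasi-likelihood tests, whose p-values were adjusted after Benjamini-Hochberg for every gene in the fit (threshold 0.05). CPM are TMM-scaled, and log2 CPM have a prior count of 2. Correlations used two-sided permutation tests of 100000 resamples, adjusted over all genes. The biological coefficient of variation was 0.536. The scripts were tested on simulated data. Alternatives were other scaling, no filter, DESeq2 1.42.0, limma-voom (limma 3.58.1), the range of the tumours' label numbers as a covariate, and tumours left out. Trac as the anchor, the longer Cd247 transcript alone, coding transcripts alone, and the correlation without anti-PD-1 replicate 6 were added after seeing the data.

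The members, gene lists and the 3 tumours left out together were chosen with earlier results of these data known. Named genes are all 32 members, the 10 protein-coding genes outside the lists closest to Cd3e, 6 pathway genes of smallest p with Cd8a, and markers that a result turns on. Some genes that the rule names are not reported here. Promoters are from RefSeq, GRCm38.p6.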

Additional observations from a re-analysis of the deposited data

Results flagged for a closer look

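In 16 of 64 sets of 8 tumours (32 members in 2 arms), 1 tumour lay further from its nearest neighbour than Dixon's 95% critical value allows, in 13 members. With normally distributed values, chance would flag about 1 in 20 such sets. The values here were CPM without logarithms, which need not be normal, so the chance share may differ. The members also share their tumours. Anti-PD-1 replicate 5 was the high tumour of its arm for Cd4 (6.87 CPM), Cd6 (6 CPM), Thy1 (124 CPM), Lck (16 CPM), Zap70 (8.26 CPM), Sh2d1a (1.02 CPM), Satb1 (9.12 CPM), Tox (1.34 CPM) and Il2rb (24.8 CPM).

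IgG2a replicate 7 was high for S1pr1 (134 CPM), Il7r (52.9 CPM) and Thy1 (99.9 CPM) and low for Il2rg (90.8 CPM). IgG2a replicate 3 was high for Satb1 (21.5 CPM) and IgG2a replicate 8 for Ubash3a (1.37 CPM). Anti-PD-1 replicate 1 was high for Il7r (52.3 CPM).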

How the results depend on the processing

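Calls between the arms stayed at 0 of 32 members in every alternative run. The number of members with a higher estimate ran from 13 (without anti-PD-1 replicate 5) to 26 with 1 tumour left out. Members that passed with Cd3e numbered 0 over 16 tumours, 4 on log2(TPM + 1), 16 without the 3 tumours, 7 with Trac as the anchor and 7 without anti-PD-1 replicate 6, by r. By rho these were 0, 0, 11, 0 and 4. Over single members, 859 alternative values kept their side, 34 newly passed and 92 changed sign. Log2 fold changes changed sign with limma-voom (Cd2 -0.0023, Lef1 -0.031), with quality weights (Trbc1 -0.10, Cd4 0.17, Cd2 -0.031, Zap70 -0.10, Sh2d1a -0.17, Ikzf3 0.19, Il7r -0.15, S1pr1 0.037), with upper-quartile scaling (Cd6 0.013, Il2rb 0.018), with DESeq2 (Satb1 0.16, S1pr1 0.053) and without the 3 tumours (Cd4 0.10, Cd5 -0.062, Ubash3a -0.017, Satb1 0.33, Ikzf3 0.072, S1pr1 0.28). The sign of r with Cd3e changed for Il7r within IgG2a (-0.49), Cd247 with Trac as the anchor (-0.073), Lef1 on log2(TPM + 1) (-0.11), Cd69 within anti-PD-1 (-0.15) and S1pr1 within anti-PD-1 (0.49) and without the 3 tumours (0.16). The causes were not tested. With 1 tumour left out, log2 fold changes that changed sign ranged as follows: Trac -0.0035 to 0.33, Cd3e -0.38 to 0.073, Cd4 -0.58 to 0.036, Cd2 -0.22 to 0.31, Cd5 -0.013 to 0.31, Cd6 -0.28 to 0.16, Lck -0.11 to 0.33, Zap70 -0.22 to 0.41, Lcp2 -0.069 to 0.18, Ubash3a -0.14 to 0.40, Sh2d1a -0.18 to 0.55, Lef1 -0.20 to 0.35, Satb1 -1.17 to 0.15, Ikzf3 -0.29 to 0.16, Il7r -0.44 to 0.51, Il2rb -0.18 to 0.078, S1pr1 -1.48 to 0.044. Depth limits Lef1 and Sh2d1a most, with 4 reads in their lowest tumours. No paired analysis was possible because the replicate numbers only follow the order of the samples.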
